A study of Mus musculus with 30 samples.

Results

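Callus RNA of lean male C57BL/6J mice collected on d7 after tibial fracture was compared with that collected on d3. The comparison rests on 6 of the 30 libraries of the series, 3 on each day, and each library came from 1 callus. The mice were bought at 18 weeks of age, acclimated for 2 weeks on a diet with 10 kcal% fat, given an open osteotomy of the right tibia held by an intramedullary nail, and kept on that diet until harvest. Soft tissue was removed and intact bone avoided, and poly(A) RNA of the whole callus was sequenced, so that fewer cells of a type and less RNA per cell cannot be told apart. Diet-induced obese (DIO) mice of the same strain, sex, age and surgery, fed 60 kcal% fat from 6 weeks of age, gave 3 libraries on each of the same days and are used only for the closing comparison.

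A fracture of this kind heals through cartilage. Blood and inflammatory cells fill the gap first, and periosteal cells then condense into chondrocytes, which lay down collagen II and aggrecan, enlarge, switch to collagen X and are replaced by bone. Osteoclasts, giant cells formed by fusion of monocyte-lineage precursors, dissolve mineral with acid and degrade the matrix with proteases. In this course d3 falls in the inflammatory phase and d7 in the phase of soft callus formation.

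Of 43629 genes in the table, 16471 had enough counts to be tested across the 12 lean libraries of d3 to d10, and 275 of them (1.67%) differed between d7 and d3 at an adjusted p under 0.05. On d7, 217 genes (1.32% of those tested) were higher and 58 (0.352%) were lower. An unadjusted p under 0.05 was reached by 2556 of the 16471, and the alternative method DESeq2 called 837 genes. The counts of either kind given for gene lists below are to be read beside these. The median log2 fold change over all tested genes was 0.01, against 1.57 for the higher and -1.29 for the lower genes. In every one of the 275, the 3 libraries of d7 lay entirely to one side of the 3 libraries of d3, a separation that 24% of all tested genes showed. The libraries held 16115195 to 26365620 counts on d3 and 16743098 to 16918141 on d7. Mitochondrial genes took 1.99% to 2.37% of the counts on d3 and 1.12% to 1.70% on d7, a difference whose part in the results was not tested.

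**Figure D1:**
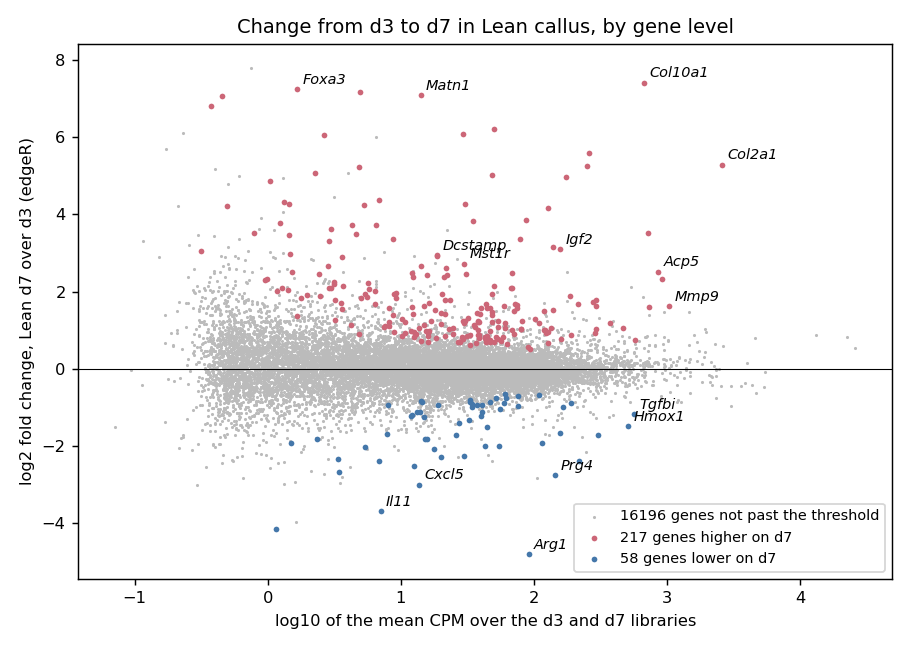
Each point is 1 of 16471 tested genes, with the log10 of its mean CPM over the 6 libraries on the horizontal axis and the log2 fold change of d7 over d3 on the vertical axis. The 217 higher genes (red) reach log2 fold changes above 7, as for Col10a1 and Matn1, while the 58 lower genes (blue) reach -4.81 for Arg1.

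Most changes lay on a course through d5. The d5 mean fell between those of d3 and d7 for 176 of the 217 higher genes and 57 of the 58 lower genes. On d10 the mean was above that of d7 in 167 of the higher genes and below it in 51 of the lower genes. These counts use libraries that share the fit with the comparison and are given as a description.

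Single mice weighed heavily on the number of calls. It was 57 without d3 replicate 1 and 69 without d3 replicate 2. It was 123, 121 and 96 without d7 replicates 1, 2 and 3, and 316 without d3 replicate 3. Of the 275 genes, 45 kept their call in each of these 6 fits, of which 37 were higher and 8 lower on d7. A further 40 kept their call in none. Those described below are Comp, Hapln1, Ucma, Ihh, H19, Fgfr2, Thbs2, Calcr, Myh8, Apln, Cryab, Serpina3n and Aldh1a2. The 45 included 7 of the 8 called osteoclast genes described below and 0 of the 4 called cartilage collagens. Values below are counts per 1000000 of the TMM-scaled library total (CPM), given in the order of replicates 1, 2 and 3, with the log2 fold change ± its standard error and the edgeR adjusted p.

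Cartilage collagens had the highest median change of the gene groups examined. Of 7 genes for collagens II, IX, XI and XXVII, 4 rose, 0 fell, and the median log2 fold change was 4.96. Col2a1 (ENSMUSG00000022483, GRCm38 chromosome 15 from 97975602 to 98004695), the main fibrillar collagen of cartilage, was at 142, 145 and 98.5 CPM on d3 and at 3247, 2190 and 9617 on d7. The d7 mean was 39.1 times that of d3 (5.29 ± 0.96, adjusted p = 0.019), and the d7 mice were spread widely. Col9a1, Col9a2 and Col9a3 encode the chains of collagen IX, which coats the collagen II fibril. Col9a2 went from 11.3, 10.9 and 9.24 CPM to 364, 251 and 906 (5.59 ± 0.89, adjusted p = 0.0111), Col9a3 rose by 5.25 ± 0.90 (adjusted p = 0.0163) and Col9a1 by 4.96 ± 0.86 (adjusted p = 0.0163). In all 4 genes d7 replicate 3 was the highest library by a wide margin. Col11a1 (1.46 ± 0.42, adjusted p = 0.111), Col11a2 (1.47 ± 0.45, adjusted p = 0.125) and Col27a1 (1.33 ± 0.55, adjusted p = 0.269) were higher in every d7 library than in every d3 library without passing the threshold. All 4 calls were lost without d3 replicate 1 or without d3 replicate 2. Without d3 replicate 3 the count was 3, and without d7 replicate 3 it was 2 with a median of 3.997.

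Noncollagenous cartilage matrix genes moved with the collagens. Of 18 tested, 11 rose and 1 fell, with a median log2 fold change of 4.01. Comp, a pentameric protein that links collagen fibrils, went from 88.4, 126 and 132 CPM to 987, 826 and 2148 (3.52 ± 0.71, adjusted p = 0.0302). Among the matrilins, adaptor proteins of cartilage, Matn1 was near the floor on d3. It stood there at 0.468, 0.173 and 0 CPM and reached 19.5, 5.17 and 59 CPM on d7 (7.08 ± 1.48, adjusted p = 0.0351). Matn3 rose by 5.01 ± 0.95 (adjusted p = 0.0237) and Matn4 by 3.36 ± 0.57 (adjusted p = 0.015). Matn4 was the steadier of them, at 14.5, 13.2 and 14.3 CPM on d3 and 136, 104 and 191 on d7.

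Hapln1, the link protein that holds aggrecan on hyaluronan, rose by 4.16 ± 0.90 (adjusted p = 0.0408), and Chad, a leucine-rich protein of cartilage, by 3.86 ± 0.64 (adjusted p = 0.0139). Cnmd, an inhibitor of vessel growth made by chondrocytes, rose by 6.21 ± 0.99 (adjusted p = 0.0111), Snorc by 6.09 ± 1.16 (adjusted p = 0.0237), Ucma by 5.23 ± 1.06 (adjusted p = 0.0304) and Cytl1 by 5.08 ± 1.12 (adjusted p = 0.045). On d3, d3 replicate 1 was the library with the most Snorc (2.40 CPM against 0.242 and 0.148), Cnmd (2.92 against 0.622 and 0.643) and Col10a1. Acan, the core protein of aggrecan, was at 247, 175 and 177 CPM on d3 and at 613, 461 and 1519 on d7, a change of 2.11 ± 0.74 that did not pass the threshold (adjusted p = 0.185). The number of called members ran from 2 without d3 replicate 2 to 8 without d7 replicate 2, and was 4 without d3 replicate 1, 6 without d3 replicate 3 or d7 replicate 1, and 3 without d7 replicate 3.

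Cilp2, a large protein of the cartilage matrix, had another pattern among the libraries. It was at 1.75, 5.22 and 3.90 CPM on d3 and at 18.9, 29.6 and 13.2 on d7 (2.48 ± 0.40, adjusted p = 0.0121), so that d7 replicate 3 was the lowest library of its day. It was the only member of the cartilage matrix group that rose and kept its call without each single library. The member that fell was Prg4 (GRCm38 chromosome 1 from 150449412 to 150466165), which encodes lubricin, the lubricant of joint surfaces and tendon sheaths. Prg4 went from 319, 173 and 265 CPM to 31.2, 20.1 and 60.5 (-2.76 ± 0.38, adjusted p = 0.00488), and this call too held without each single library.

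Few regulators of chondrocytes passed the threshold by edgeR. Of 13 tested, 2 rose and 0 fell, with a median of 1.12. An unadjusted p under 0.05 was reached by 7, and the alternative method DESeq2 called 6. Sox9, the transcription factor that sets chondrocyte fate, was at 21.3, 17.1 and 20.1 CPM on d3 and at 31.6, 21.0 and 74.6 on d7. The 2 days overlapped, and the change of 1.12 ± 0.58 did not pass the threshold (adjusted p = 0.381). The members that rose, Gli1 and Hhip, belong to the hedgehog pathway and are described with it.

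**Figure D2:**
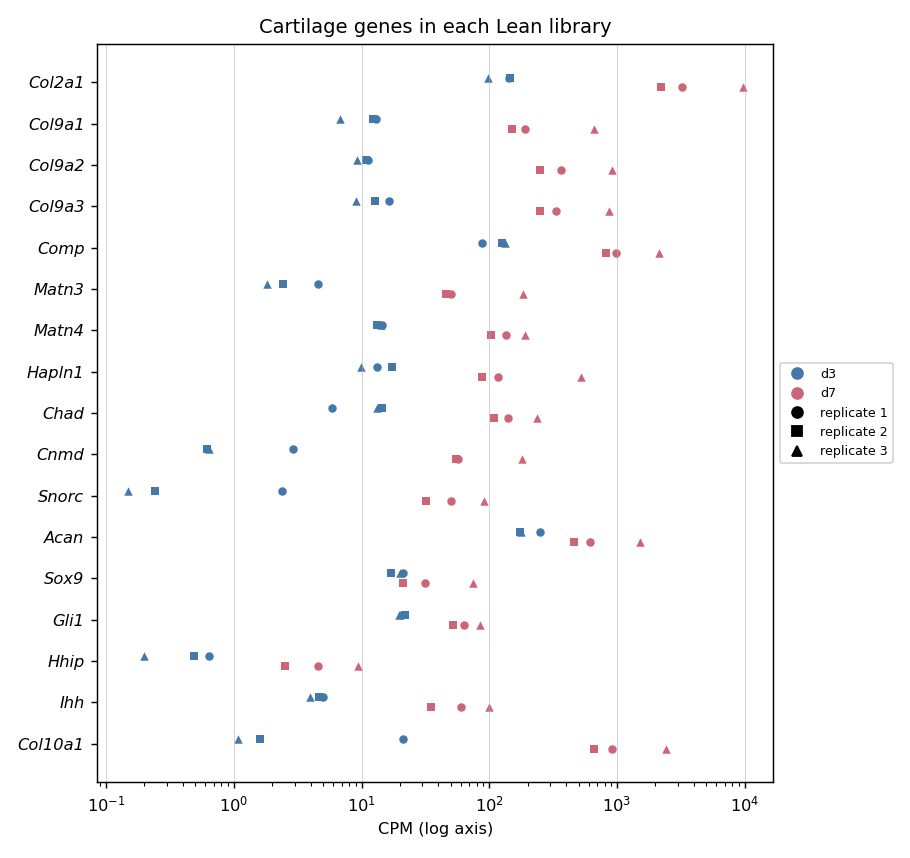
Points give the CPM (log axis) of 17 cartilage genes in each of the 3 d3 libraries (blue) and 3 d7 libraries (red), with the replicate as the shape. The days separate for 16 of the genes and overlap for Sox9, and d7 replicate 3 (triangle) is the highest library for each gene plotted.

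Of 12 genes for chondrocyte hypertrophy, 3 rose, 0 fell, and all 12 had a higher mean on d7 (median 1.10). Col10a1 (ENSMUSG00000039462), the collagen that marks hypertrophic cartilage, was at 21.3, 1.59 and 1.09 CPM on d3 and at 912, 664 and 2421 on d7. Its d3 level was thus uneven, with 364 counts in replicate 1 against 46 and 22 in the others, and the days did not overlap (7.40 ± 1.45, adjusted p = 0.0262). Foxa3, a transcription factor of hypertrophic chondrocytes, had 1 count in the 3 d3 libraries together and 172 on d7 (7.23 ± 1.25, adjusted p = 0.0163). The ratio was 221 with a 95% counting interval from 39.1 to 8774. That interval pools the mice of a day and leaves out the spread between them. Its partner Foxa2 was at 0, 0 and 0.0989 CPM on d3 and at 1.01, 0.352 and 2.2 on d7 (5.00 ± 1.40, adjusted p = 0.103). Mmp13, the collagenase of hypertrophic chondrocytes and osteoblasts, reached 1021, 661 and 1458 CPM from 367, 356 and 483 without passing the threshold (1.38 ± 0.35, adjusted p = 0.0719). Mef2c, Runx2 and Runx3 had log2 fold changes of 0.29, 0.39 and 0.12. The call on Col10a1 held without d3 replicate 1 and was lost without any other single library. That on Foxa3 was lost without d3 replicate 1 or 2 or d7 replicate 3, and the list gave 0 or 1 call in each of the 6 fits.

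Promoter sequence is shown for 3 called genes, Col10a1 of hypertrophic cartilage, Bglap of bone and Cxcl2 of inflammation, so that the letters of motifs near their starts can be read. Bases 250 to 31 before the RefSeq start are printed 5′ to 3′ (RefSeq, GRCm38.p6), with capitals on the letters of 1 motif found in each. Col10a1 (chr10:34389731-34389950, plus strand) held ACAAAG, the core letters bound by SOX factors, at 185 to 180 bases before the start. Bglap (chr3:88384497-88384716, minus strand) held ACCACA, the reverse complement of the RUNX core TGTGGT, at 132 to 127, and also 1 match, not in capitals, to CACATGA, the reverse complement of the M-box TCATGTG that MITF and related factors bind. Cxcl2 (chr5:90903649-90903868, plus strand) held the NF-kB letters, GGG and TTTCC around any 2 bases, at 97 to 88 and again at 78 to 69.
Col10a1: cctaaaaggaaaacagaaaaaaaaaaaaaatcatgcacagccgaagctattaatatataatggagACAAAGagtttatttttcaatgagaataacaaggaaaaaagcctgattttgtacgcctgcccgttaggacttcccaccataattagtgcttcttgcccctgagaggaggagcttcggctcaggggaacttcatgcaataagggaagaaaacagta
Bglap: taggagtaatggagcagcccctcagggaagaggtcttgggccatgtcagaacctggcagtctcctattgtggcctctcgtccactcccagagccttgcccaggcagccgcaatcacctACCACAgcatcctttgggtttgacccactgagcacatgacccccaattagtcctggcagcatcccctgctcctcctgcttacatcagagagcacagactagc
Cxcl2: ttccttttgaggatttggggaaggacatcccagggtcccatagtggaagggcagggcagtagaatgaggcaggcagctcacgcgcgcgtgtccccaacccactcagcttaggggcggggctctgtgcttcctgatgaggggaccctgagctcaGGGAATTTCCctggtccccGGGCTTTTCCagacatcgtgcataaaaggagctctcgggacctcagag

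Over the 250 bases before the start, on both strands, the SOX letters were in 17.2% of 151 listed promoters of the higher genes, 24.4% of 41 of the lower genes, 12% of 11812 of all tested genes and 16.5% of all 27025 listed. The RUNX letters were in 13.9%, 12.2%, 11.2% and 14.2% of the same sets. The NF-kB letters were in 1.32% of the higher genes, 4.88% of the lower genes (2 promoters), 1.43% of the tested genes and 1.40% of all. The M-box letters were in 1.99% of the higher genes, 9.76% of the lower genes (4 promoters), 1.88% of the tested genes and 3.22% of all. A match in such short letters is a description of the sequence, and the 4 sets differ in size.

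Hedgehog signalling carries a signal from prehypertrophic chondrocytes to their neighbours. The ligand Ihh binds the receptor Ptch1, which frees Smo to activate the GLI factors, and Gli1, Ptch1 and Hhip are themselves targets of the pathway. Of 18 pathway genes tested, 4 rose and 0 fell (median 0.85, from a list put together after the values were seen). Ihh went from 5.03, 4.63 and 3.95 CPM to 60.3, 34.8 and 99.8 (3.84 ± 0.82, adjusted p = 0.039). Hhip, which binds and sequesters the ligand, went from 0.643, 0.484 and 0.198 CPM to 4.57, 2.52 and 9.37 (3.63 ± 0.59, adjusted p = 0.0121). Gli1, the transcriptional target used to read out the pathway, went from 20.9, 21.8 and 19.8 CPM to 63.1, 52.0 and 83.9 (1.67 ± 0.28, adjusted p = 0.0131). Scube2, which helps release hedgehog ligands, rose by 1.79 ± 0.37 (adjusted p = 0.0347). Ligand, antagonist and target thus lay higher in all d7 libraries, by unequal amounts.

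The pathway's receptor Ptch1 was at 35.4, 32.3 and 30.3 CPM on d3 and at 71.0, 58.2 and 157 on d7 (1.55 ± 0.38, adjusted p = 0.0642). Gli2 (1.42 ± 0.33, adjusted p = 0.0543) and Scube1 (2.84 ± 0.71, adjusted p = 0.0719) also stopped short of the threshold, and Smo, Sufu and Gli3 had log2 fold changes of 0.26, -0.01 and -0.04. Of the 4 calls, 0 were left without d3 replicate 2, 1 without d3 replicate 1 or d7 replicate 3, 2 without d7 replicate 1 or 2, and 3 without d3 replicate 3.

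Secreted regulators of other pathways rose in small numbers by edgeR. Dkk1 and Dkk2, antagonists that block the WNT co-receptors, were 2 of 15 WNT ligands and antagonists called, with 0 lower (median 1.08). In this WNT list 11 had an unadjusted p under 0.05 and DESeq2 called 8. It called 4 of the BMP and 7 of the FGF, TGF-beta and IGF genes below. With single libraries left out, the calls on Dkk1 and Dkk2 held only without d3 replicate 3. Dkk1 went from 6.49, 11.7 and 13.5 CPM to 37.9, 37.2 and 33.6 (1.77 ± 0.34, adjusted p = 0.0258) and Dkk2 rose by 2.15 ± 0.48 (adjusted p = 0.0486). Wif1, another WNT inhibitor, was at 92.0, 104 and 90.2 CPM on d7 against 20.9, 27.1 and 49.8 on d3 (1.55 ± 0.36, adjusted p = 0.0543). Of 15 BMP ligands and antagonists, the antagonist Chrdl1 was the 1 that rose (1.77 ± 0.33, adjusted p = 0.0204). Of 22 FGF, TGF-beta and IGF genes, Fgfr2 rose by 1.01 ± 0.22 (adjusted p = 0.0444), Igfbp2, which binds insulin-like growth factors, by 2.23 ± 0.33 (adjusted p = 0.00726), and Igf2 by 3.09 ± 0.40 (adjusted p = 0.00375).

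Igf2, the fetal insulin-like growth factor, went from 48.7, 22.6 and 28.1 CPM to 261, 276 and 309, and its call held without each single library. It was higher still on d5, with a mean of 399 CPM, and fell to 90.1 on d10. The gene is imprinted, and 4 other imprinted growth genes of 14 tested also rose (5 higher, 0 lower, median 1.24, from a list put together after the values were seen). H19, the long noncoding RNA next to Igf2, went from 455, 277 and 347 CPM to 1200, 868 and 1197 (1.60 ± 0.32, adjusted p = 0.0284). Mest rose by 1.73 ± 0.25 (adjusted p = 0.00726), Cdkn1c, a cell cycle inhibitor, by 1.94 ± 0.37 (adjusted p = 0.0255) and Zim1 by 4.25 ± 0.85 (adjusted p = 0.0289). Of these 5, the d10 mean was above the d7 mean only in Cdkn1c, while Igf2, H19 and Mest had their highest mean on d5. In GENCODE M21 the readthrough gene Gm49394 covers 62.8% of the exons of Igf2 on the same strand. How reads of that shared part were counted is not known. Mest and Cdkn1c overlap genes on the opposite strand over 23.1% and 30.7%. The number of calls was 2 without d3 replicate 1, 2 or 3 or without d7 replicate 3, 3 without d7 replicate 1 and 4 without d7 replicate 2.

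Osteoclast genes rose with small errors. Of 18 tested, 8 rose, 0 fell, and 12 did not overlap between the days (median 0.58). The summed level of the list was 1986 to 2564 CPM on d3 and 5265 to 6562 on d7. Dcstamp (ENSMUSG00000022303, GRCm38 chromosome 15 from 39745930 to 39760938) and Ocstamp encode membrane proteins required for the fusion of osteoclast precursors. Dcstamp was at 3.80, 5.26 and 3.81 CPM on d3 and at 38.9, 32.2 and 27.6 on d7 (2.93 ± 0.21, adjusted p = 6.85e-05). Ocstamp was at 8.77, 7.81 and 8.85 CPM on d3 and at 37.2, 33.1 and 27.3 on d7 (1.94 ± 0.15, adjusted p = 7.93e-05). The d7 replicate with the most cartilage collagen, replicate 3, was thus the lowest of its day for both fusion genes.

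The enzymes of bone resorption rose by similar amounts from much higher levels. Acp5, tartrate-resistant acid phosphatase, went from 255, 262 and 251 CPM to 1597, 1709 and 1085 (2.51 ± 0.20, adjusted p = 9.32e-05). Ctsk, the collagen-cleaving cathepsin of osteoclasts, went from 287, 295 and 341 CPM to 1622, 1610 and 1361 (2.32 ± 0.21, adjusted p = 3.05e-04). Per kilobase of exon, the d7 mean of Ctsk stood at 1013 CPM and ranked it 31 among the tested genes, from 203 CPM and rank 204 on d3. Mmp9, a gelatinase that neutrophils also make, went from 400, 662 and 452 CPM to 1609, 1578 and 1495 (1.63 ± 0.22, adjusted p = 0.00484).

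Among receptors and the proton pump, Oscar, a costimulatory receptor of osteoclasts, went from 3.27, 5.01 and 4.40 CPM to 36.4, 37.6 and 25.1 (2.96 ± 0.26, adjusted p = 2.22e-04). Atp6v0d2, a proton pump subunit enriched in osteoclasts, went from 29.7, 41.2 and 31.2 CPM to 121, 101 and 106 (1.68 ± 0.22, adjusted p = 0.00373). Calcr, the calcitonin receptor, rose from 4 counts in all d3 libraries to 29 on d7 (3.06 ± 0.67, adjusted p = 0.044). Of the 22 subunits and accessory proteins of this pump tested, 19 had a higher mean on d7, with 2 called, Atp6v0d2 and Atp6v1f (0.56 ± 0.13, adjusted p = 0.0486, a list put together after the values were seen).

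Other genes of osteoclast formation and function did not move alike. Tnfrsf11a, which encodes RANK, the receptor for the differentiation signal, was at 28.8, 25.9 and 29 CPM on d3 and at 23.4, 23.5 and 23 on d7 (-0.26 ± 0.14, adjusted p = 0.398). Its ligand Tnfsf11, the decoy receptor Tnfrsf11b and the transcription factor Nfatc1 had log2 fold changes of -0.21, -0.36 and 0.12. The chloride channel Clcn7 (0.54 ± 0.12, adjusted p = 0.0533) and the kinase Src (0.46 ± 0.13, adjusted p = 0.113) lay higher in all d7 libraries without passing the threshold. The number of osteoclast calls was 7 without any 1 of the 6 libraries, and these were the genes above other than Calcr.

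Several other genes with small errors were picked out after their values were seen. Mst1r, a receptor tyrosine kinase for macrophage-stimulating protein, had the smallest adjusted p of all 16471 genes. It was at 6.95, 7.92 and 8.55 CPM on d3 and at 53.9, 56.2 and 45.2 on d7 (2.73 ± 0.16, adjusted p = 1.24e-05). Slc9b2, a sodium-proton exchanger of osteoclasts, rose by 2.14 ± 0.17 (adjusted p = 9.32e-05), Siglec15, a receptor of the osteoclast lineage, by 2.31 ± 0.31 (adjusted p = 0.00454), and Snx10, a sorting protein required for resorption, by 1.20 ± 0.20 (adjusted p = 0.0124). Ckb, the brain-type creatine kinase, rose from 120, 107 and 168 CPM to 486, 557 and 304 (1.77 ± 0.23, adjusted p = 0.00375). Mdk, the heparin-binding growth factor midkine, rose from 19.6, 18.8 and 23.1 CPM to 127, 109 and 110 (2.49 ± 0.19, adjusted p = 7.93e-05). The calls on Mst1r, Slc9b2, Siglec15, Ckb and Mdk held without each single library.

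**Figure D3:**
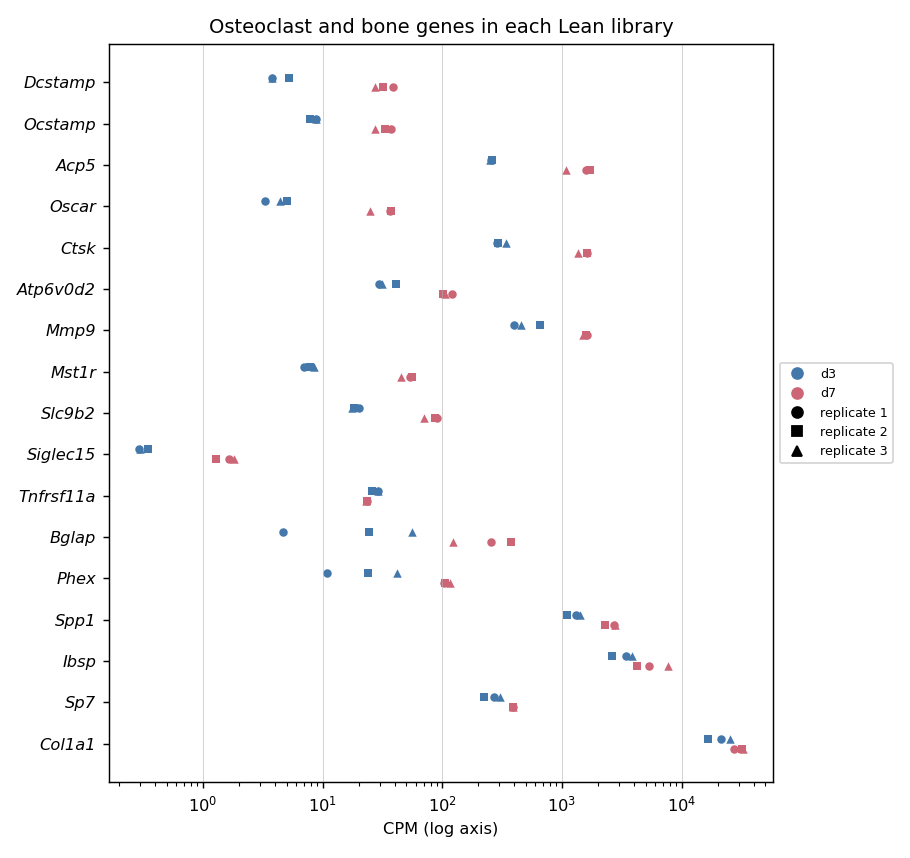
Points give the CPM (log axis) of 11 osteoclast or accompanying genes (top) and 6 bone genes (bottom) in the d3 (blue) and d7 (red) libraries, with the replicate as the shape. The d3 libraries lie close together for Dcstamp, Acp5, Ctsk and Mst1r and far apart for Bglap, which spans 4.68 to 55.4 CPM on d3.

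Genes of osteoblasts and mineralization leaned upward with few calls by edgeR, while 12 had an unadjusted p under 0.05 and DESeq2 called 6. Of 26 tested, 25 had a higher mean on d7, 16 did not overlap, 2 rose and 0 fell (median 0.75). The count was 4 without d3 replicate 3 and 0 without any 1 of the other 5 libraries, and Bglap and Phex kept their calls only in the former fit. Bglap, osteocalcin of mature osteoblasts, was uneven on d3 at 4.68, 24.7 and 55.4 CPM and reached 255, 372 and 123 on d7, where replicate 3 was the lowest (3.15 ± 0.70, adjusted p = 0.0471). Its 50-base words are 56.6% shared with other genes, mainly its copy Bglap2, so the split of reads between the copies is uncertain. Phex, an endopeptidase of osteoblasts and osteocytes, went from 10.8, 24.2 and 42.2 CPM to 104, 106 and 117 (2.08 ± 0.47, adjusted p = 0.0484). Spp1, osteopontin, was at 1314, 1111 and 1403 CPM on d3 and at 2736, 2301 and 2756 on d7 (1.03 ± 0.25, adjusted p = 0.0675). Sp7, the osteoblast transcription factor, was at 269, 223 and 302 CPM on d3 and at 392, 392 and 393 on d7 (0.57 ± 0.25, adjusted p = 0.293). Col1a1, the main collagen of bone and fibrous tissue, was already at 21358, 16725 and 25384 CPM on d3 and at 27367, 32044 and 32732 on d7 (0.54 ± 0.32, adjusted p = 0.462). Secretory pathway genes (21 tested, median -0.04) and glycosaminoglycan synthesis genes (20 tested, median 0.17) gave 0 calls by edgeR. Each had 1 gene at an unadjusted p under 0.05, Ddit3 (0.58 ± 0.19, adjusted p = 0.152) and Chst15 (0.54 ± 0.13, adjusted p = 0.0667), and DESeq2 called 0 and 1 gene.

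Few fibrous matrix genes passed the threshold by edgeR. Of 32 fibrous matrix genes, 2 rose, 0 fell, and the median was 0.20. An unadjusted p under 0.05 was reached by 8, against 2556 of all 16471 tested genes, and DESeq2 called 5. Thbs2, a matricellular thrombospondin, went from 233, 154 and 205 CPM to 354, 349 and 433 (0.94 ± 0.18, adjusted p = 0.0266), and Fbn2, the fetal fibrillin, rose by 1.24 ± 0.25 (adjusted p = 0.0304). Of 20 microfibril and elastic fibre genes, 5 rose, 0 fell, and the median was 0.22 (a list put together after the values were seen). Mfap4, which binds fibrillin and elastin, went from 26.8, 17.0 and 33.5 CPM to 129, 111 and 90.4 (2.1 ± 0.31, adjusted p = 0.00726). Fbln7 rose by 2.38 ± 0.30 (adjusted p = 0.00373), Emilin3 by 2.06 ± 0.29 (adjusted p = 0.00622) and Mfap2 by 1.57 ± 0.25 (adjusted p = 0.0111). The calls on Fbln7, Emilin3 and Mfap4 held without each single library. Fbln2 (-0.95 ± 0.23, adjusted p = 0.0625) leaned the other way.

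Among small leucine-rich proteoglycans, 3 of 13 rose and 0 fell (median 1.24). These were Chad, Ogn, also known as mimecan (1.49 ± 0.29, adjusted p = 0.0272), and Ecm2 (1.14 ± 0.23, adjusted p = 0.0328). The count was 0 without d3 replicate 1 or 2 or d7 replicate 3, 1 without d7 replicate 2, 3 without d7 replicate 1 and 5 without d3 replicate 3, and DESeq2 called 9. Tnmd, tenomodulin of tendon and ligament and a relative of Cnmd, went from 4.15, 7.54 and 8.75 CPM to 30.3, 44.2 and 37.1 (2.44 ± 0.31, adjusted p = 0.00373). Scx, the transcription factor of tendon cells, had a log2 fold change of -0.63, and of 8 tendon and synovial genes 1 rose and 1, Prg4, fell. Among 21 matrix proteases and inhibitors, Mmp9, Mmp11 (1.24 ± 0.20, adjusted p = 0.0111) and Timp2 (0.74 ± 0.16, adjusted p = 0.0386) rose and 0 fell.

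The largest decrease was in a gene of wound macrophages, and genes of acute inflammation were among the 15 largest. These 15 also held Prg4, Hspb7, Cyp26a1 and Aldh1a2, which are described elsewhere. The remaining ones were Chl1 (-2.52 ± 0.45, adjusted p = 0.0176), Card14 (-2.28 ± 0.51, adjusted p = 0.0494), Cnksr1 (-2.25 ± 0.47, adjusted p = 0.0367) and Spint1 (-2.03 ± 0.38, adjusted p = 0.0222). Among the fits with 1 library left out, Card14 and Cnksr1 kept their calls only without d7 replicate 1. Spint1 kept its call only without d3 replicate 3 or d7 replicate 1, and Chl1 only without d3 replicate 2 or 3. Arg1 (GRCm38 chromosome 10 from 24915221 to 24927484), the arginase of alternatively activated macrophages, was at 277, 88.3 and 161 CPM on d3 and at 14.1, 2.35 and 2.43 on d7. On d3 replicate 1 was the highest library, and on d7 it was again replicate 1, with no overlap between the days (-4.81 ± 0.72, adjusted p = 0.0087). Hmox1, heme oxygenase, which breaks down heme from lysed red cells, went from 910, 526 and 821 CPM to 308, 286 and 216 (-1.48 ± 0.26, adjusted p = 0.0166). These were the 2 of 17 macrophage activation genes that fell, with 0 higher (median -0.47). Msr1, a scavenger receptor, went from 78.5, 51.8 and 68.0 CPM to 27.1, 22.2 and 19.9 (-1.52 ± 0.22, adjusted p = 0.00622) and was the 1 call among 24 monocyte and macrophage genes (median -0.40). Cx3cr1 (-0.74 ± 0.22, adjusted p = 0.116) and Fcgr1 (-0.72 ± 0.25, adjusted p = 0.188) lay lower in all d7 libraries without passing the threshold. The summed level of the monocyte and macrophage list was 8881 to 9317 CPM on d3 and 6051 to 9050 on d7, so the days overlapped as a sum.

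Of 24 chemokines, 3 fell, 0 rose, and the median was -0.51. Cxcl5 and Cxcl2 attract neutrophils and Ccl2 attracts monocytes. Cxcl5 went from 33.1, 20.7 and 19.3 CPM to 3.26, 2.41 and 3.44 (-3.00 ± 0.39, adjusted p = 0.00375). Cxcl2, whose promoter is printed above, went from 5.44, 4.56 and 7.86 CPM to 1.36, 0.822 and 0.621 (-2.66 ± 0.43, adjusted p = 0.0121), and Ccl2 from 34.0, 15.2 and 24.1 to 9.08, 5.46 and 6.21 (-1.82 ± 0.32, adjusted p = 0.0165). Cxcl1, a close relative of Cxcl2, was at 5.49, 4.94 and 2.87 CPM on d3 and at 1.31, 0.763 and 1.64 on d7 (-1.84 ± 0.50, adjusted p = 0.095). The call on Cxcl5 held without each single library, and that on Cxcl2 was lost without d7 replicate 2 or 3. Without either of those libraries 1 of the 3 chemokine calls was left.

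Of 28 cytokine and acute inflammation genes, 5 fell, 0 rose, and 24 had a lower mean on d7 (median -0.61). Il11, a cytokine of stromal cells, went from 19.2, 9.37 and 10.7 CPM to 1.19, 0.411 and 1.41 (-3.69 ± 0.71, adjusted p = 0.024). Saa3, an acute phase protein made locally, went from 8.77, 11.1 and 14.4 CPM to 2.25, 3.70 and 0.621 (-2.38 ± 0.48, adjusted p = 0.0304). Serpina3n, an inhibitor of leukocyte proteases, went from 102, 56 and 103 CPM to 28.9, 15.8 and 20.1 (-2.01 ± 0.45, adjusted p = 0.0488), and its relative Serpina3m, of which 19.1% of 50-base words are shared with other genes, was under 3 CPM throughout. Has2, the hyaluronan synthase of provisional matrix, fell by 1.39 ± 0.28 on the log2 scale (adjusted p = 0.0281). The classic cytokines of early inflammation did not pass the threshold, with Il6 at -1.52 ± 0.62 (adjusted p = 0.259) and Il1b at -0.58 ± 0.50 (adjusted p = 0.638). Without single libraries 0 to 3 of the 5 calls were left, with 0 without d3 replicate 1 or d7 replicate 1, 1 without d3 replicate 2 or d7 replicate 2 or 3, and 3 without d3 replicate 3.

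**Figure D4:**
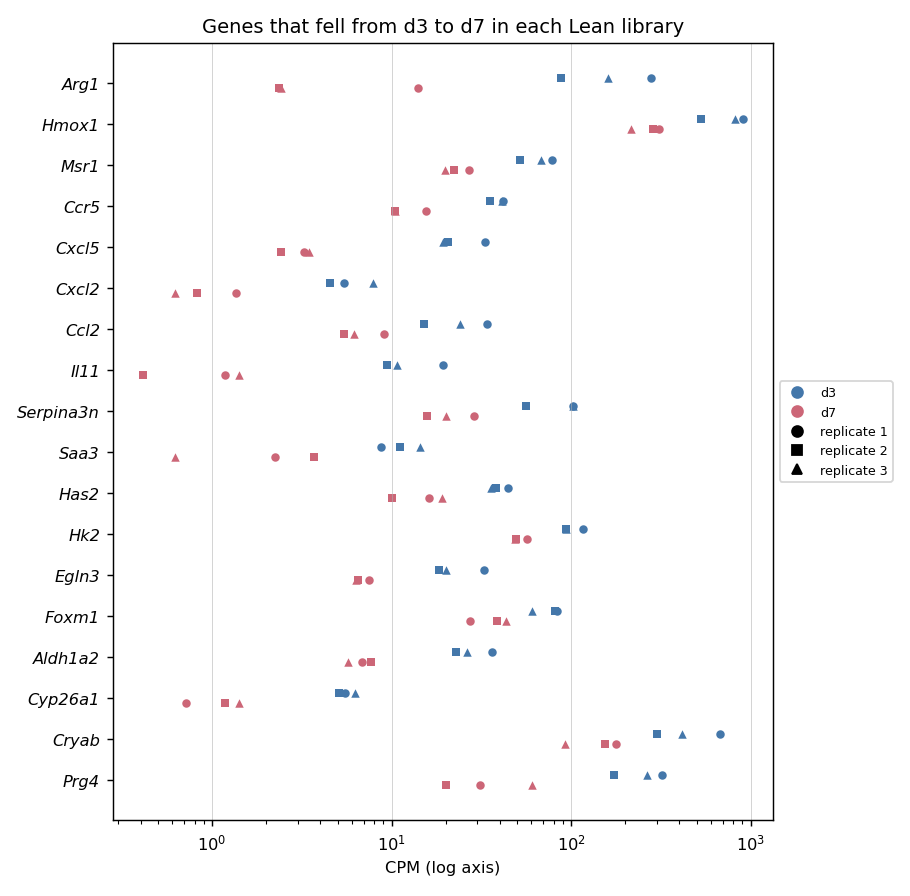
Points give the CPM (log axis) of 18 genes that fell, in the d3 (blue) and d7 (red) libraries, with the replicate as the shape. Every d7 library lies below every d3 library for each gene, and they come closest for Foxm1, with 60.4 CPM in the lowest d3 library and 43.3 in the highest d7 library.

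The other leukocyte genes gave few calls. Of 28 neutrophil genes, 24 had a lower mean on d7 (median -0.68) and the 1 called was Mmp9, which rose. The days overlapped in the summed neutrophil level, with 14256 to 29876 CPM on d3 and 11004 to 15491 on d7, and d3 replicate 2 held the highest. Ptprc, the pan-leukocyte antigen CD45, was at 138, 247 and 139 CPM on d3 and at 117, 138 and 161 on d7 (-0.34 ± 0.38, adjusted p = 0.733). Interferon response (26 tested, median 0.17), dendritic cell (20, median 0.14), T and NK cell (22, median 0.44) and B cell genes (16, median 0.07) gave 0 calls by edgeR, with 2, 2, 2 and 0 genes at an unadjusted p under 0.05 and 0, 1, 0 and 0 calls by DESeq2. The nearest was Batf3, a transcription factor of dendritic cells (1.64 ± 0.39, adjusted p = 0.057). All 11 platelet and megakaryocyte genes had a lower mean on d7 (median -1.07), led by Pf4, platelet factor 4 (-1.33 ± 0.32, adjusted p = 0.0625). None was called by edgeR, 2 had an unadjusted p under 0.05, and DESeq2 called 1. Pericyte and smooth muscle genes (13 tested, median 0.38) gave 0 calls by edgeR, 3 at an unadjusted p under 0.05 and 2 by DESeq2. Apln, an endothelial peptide that is induced by hypoxia, fell by 1.11 ± 0.25 on the log2 scale (adjusted p = 0.0478) and was the 1 call among 23 endothelial genes. Selp, the adhesion molecule P-selectin (-1.25 ± 0.18, adjusted p = 0.00622), and Mefv, pyrin of myeloid cells (-1.33 ± 0.20, adjusted p = 0.0087), fell in every fit with a library left out and were picked after their values were seen.

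Cell cycle genes lay lower together with a single call by edgeR, while 16 had an unadjusted p under 0.05 and DESeq2 called 7. All 27 had a lower mean on d7, with a median of -0.62, and 13 did not overlap between the days. Foxm1, the transcription factor of mitotic genes, went from 83.2, 81.1 and 60.4 CPM to 27.3, 38.5 and 43.3 (-1.04 ± 0.22, adjusted p = 0.0355). Among the fits with 1 library left out, this call held only without d3 replicate 3. Bub1 (-0.97 ± 0.22, adjusted p = 0.0532) and Plk1 (-1.03 ± 0.27, adjusted p = 0.0839) followed without passing the threshold, and Mki67 had a log2 fold change of -0.62. The summed level was 1973 to 3292 CPM on d3 and 1373 to 2121 on d7, and the d7 range reached into that of d3.

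Glycolysis and hypoxia genes showed a similar lean. Of 24 tested, 20 had a lower mean on d7 and 2 fell by edgeR (median -0.48). An unadjusted p under 0.05 was reached by 11, and DESeq2 called 7. Hk2, hexokinase, went from 116, 93.3 and 94.1 CPM to 56.9, 49.3 and 48.4 (-0.97 ± 0.17, adjusted p = 0.0176), and Egln3, an oxygen sensor that is itself a target of hypoxia-inducible factor, from 32.7, 18.3 and 20.2 to 7.48, 6.46 and 6.32 (-1.81 ± 0.37, adjusted p = 0.0314). Among the fits with 1 library left out, Hk2 kept its call only without d3 replicate 3 or d7 replicate 1. Egln3 kept its call only without d3 replicate 3. The lactate exporter Slc16a3 (-0.80 ± 0.19, adjusted p = 0.0625) and Pgk1 (-0.52 ± 0.13, adjusted p = 0.0719) were next.

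Of 15 retinoic acid genes, 2 fell, 0 rose, 8 had a higher mean on d7, and the median was 0.18. Aldh1a2, which makes retinoic acid, went from 36.2, 22.9 and 26.4 CPM to 6.88, 7.69 and 5.70 (-2.08 ± 0.42, adjusted p = 0.0307). Cyp26a1, which breaks it down and is induced by it, went from 5.49, 5.12 and 6.23 CPM to 0.712, 1.17 and 1.41 (-2.34 ± 0.42, adjusted p = 0.0176). The call on Aldh1a2 was lost in each of the 6 fits that left out 1 library, and that on Cyp26a1 held only without d3 replicate 3. Both this list and the next were put together after the values were seen. Of 9 small heat shock proteins and partners, all had a lower mean, and Hspb7 (-2.39 ± 0.50, adjusted p = 0.0347) and Cryab (-1.70 ± 0.36, adjusted p = 0.0386) fell. Both are chaperones abundant in muscle, at 589, 230 and 279 CPM for Hspb7 and 672, 299 and 412 for Cryab on d3.

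Markers of other tissues that the callus could hold were examined beside these results. Adult muscle genes were present in every library, at a summed level of 11911 to 20220 CPM on d3 and 9933 to 29556 on d7, and 0 of 22 changed by edgeR or DESeq2 (1 at an unadjusted p under 0.05). Of 18 genes of regenerating muscle, Myh8, the perinatal myosin heavy chain, rose from 6.60, 2.01 and 0.593 CPM to 91.8, 36.0 and 44.7 (4.27 ± 0.94, adjusted p = 0.0442) with a d5 mean of 185, while Myod1 (-1.53 ± 0.56, adjusted p = 0.209) and Pax7 (-1.75 ± 0.93, adjusted p = 0.4) lay lower. Red cell genes overlapped between the days, with summed levels of 1069 to 6463 CPM on d3 and 3682 to 8468 on d7, as did those of fat cells, with 612 to 1338 on d3 and 812 to 1192 on d7. Keratinocyte markers were near absent, with 3 of 11 tested and a summed level of 9.75 to 14.0 CPM over both days. The part of these tissues in the changes was not tested.

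Of 14 Schwann cell genes, Ncmap was the 1 called, from 0.409, 0.484 and 0.989 CPM to 9.14, 7.51 and 22.2 (4.36 ± 0.83, adjusted p = 0.0237). It is known from myelinating Schwann cells, and d7 replicate 3 was its highest library, as for the cartilage genes plotted above.

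A few genes known from neurons and endocrine cells rose. Of 14 genes of secretory granules and synapses, only 5 had enough counts to be tested, of which 3 rose and 0 fell (median 1.62). Chga, chromogranin A of secretory granules, went from 0, 0.104 and 0.247 CPM to 2.14, 1.29 and 4.18 (4.33 ± 0.67, adjusted p = 0.0102) and was back at 0.0862 on d10. The gene 6330403K07Rik rose by 4.85 ± 0.76 (adjusted p = 0.0106) and Cpe, a prohormone carboxypeptidase, from 104, 117 and 206 CPM to 475, 426 and 411 (1.62 ± 0.32, adjusted p = 0.0288). With single libraries left out, the call on Cpe held only without d3 replicate 3. Stmn2 (0.07 ± 0.23, adjusted p = 0.925) and Syp (-0.03 ± 0.35, adjusted p = 0.98), which are neuronal markers, gave no call. Penk, which encodes enkephalins and was picked after its values were seen, rose from 6.25, 7.81 and 14.6 CPM to 43.2, 53.1 and 60.5 (2.45 ± 0.31, adjusted p = 0.00373). Trpm5 and Cryba2 had 0 counts in all d3 libraries against 47 and 39 on d7, and were at least 20.0-fold and 16.6-fold higher when d3 is set at 3 counts over its 3 libraries together. The 15 largest increases with at least 1 CPM also held Ppp1r1b and the pseudogene Itih5l-ps. Ppp1r1b went from 0, 0.0346 and 0.148 CPM to 7.06, 4.81 and 17.3 (7.18 ± 1.27, adjusted p = 0.0175). Itih5l-ps went from 0, 0.173 and 0 CPM to 2.08, 1.88 and 11.8 (6.06 ± 1.25, adjusted p = 0.0328).

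The change in the DIO callus over the same days was used to see how far these genes moved under the other diet. In the DIO libraries 1240 of 16995 genes (7.30%) changed, 794 (4.67%) higher and 446 (2.62%) lower. All 275 genes were tested there, and 261 had the same direction (94.9%, against 66.9% of all 16343 genes tested in both diets). Of the 275, 118 also passed the threshold in DIO in the same direction, 94 higher and 24 lower, and 0 passed it in the opposite one. These are 42.9% of the genes called in Lean and 9.52% of those called in DIO.

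The cartilage collagens had a median log2 fold change of 6.32 in DIO against 4.96 in Lean. Col10a1 had a log2 fold change of 10.6 ± 1.34 there against 7.40 ± 1.45 in Lean, Cnmd 9.31 ± 1.11 against 6.21 ± 0.99, and Snorc 9.64 ± 1.19 against 6.09 ± 1.16. The edgeR adjusted p of their differences between diets, tested as described next, was 0.570, 0.483 and 0.572. Without Lean d3 replicate 1, their highest Lean d3 library, the Lean values were 9.94, 7.26 and 8.11. The DIO d3 levels were low, at 0.845, 0.618 and 4.44 CPM for Col10a1 and at 0, 0.124 and 0.851 for Snorc. The osteoclast list had a median of 0.54 in DIO against 0.58 in Lean, with 5 of 18 genes higher and 1, Tnfrsf11a, lower in DIO. Estimates of its single genes differed more. Dcstamp was at 3.80, 6.79 and 6.38 CPM on d3 and at 7.28, 15.2 and 9.73 on d7 in DIO (0.91 ± 0.32, adjusted p = 0.0947), and Ocstamp at 8.26, 13.3 and 12.9 and at 11.4, 18.3 and 17.5 (0.45 ± 0.31, adjusted p = 0.404). Acp5 (1.18 ± 0.30, adjusted p = 0.0219), Ctsk (1.05 ± 0.29, adjusted p = 0.0349) and Oscar (1.57 ± 0.23, adjusted p = 2.86e-04) rose in DIO, where the Lean values were 2.51, 2.32 and 2.96. These osteoclast genes were named for their change in Lean, so their smaller DIO values are a description. By edgeR 0 of 17057 genes passed the test of the difference between diets.

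The difference between the 2 changes was itself tested over the 24 libraries of d3 to d10. By edgeR 0 of 17057 genes (0%) passed the threshold, with 1433 at an unadjusted p under 0.05 and a smallest adjusted p of 0.0623, and DESeq2 called 55. The 5 genes with the smallest p among those called in Lean were Mst1r (Lean minus DIO 2.08 ± 0.35, adjusted p = 0.0623), Ocstamp (1.49 ± 0.27, adjusted p = 0.0721), Ckb (1.75 ± 0.33, adjusted p = 0.0949), Dcstamp (2 ± 0.39, adjusted p = 0.0949) and Lrrn4cl (1.21 ± 0.24, adjusted p = 0.0949). They were taken from genes chosen for their change in Lean, which is 1 of the 2 terms of this difference, so their size is a description. In DIO, Mst1r was at 11.3, 12.6 and 12 CPM on d3 and at 10.6, 21.3 and 24.2 on d7.

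Of the 275 genes, 14 had the opposite sign in DIO. Cxcl2 was at 4.04, 6.09 and 5.17 CPM on d3 and at 62.9, 1.40 and 0.541 on d7 in DIO, where 1 mouse stood apart, and Cxcl5 was at 47.4, 62.5 and 32.3 CPM and at 71.9, 71.2 and 3.51. Arg1 kept its sign in DIO at -1.38 ± 0.76 (adjusted p = 0.286), with d7 libraries at 101, 22.5 and 5.27 CPM. DIO d7 replicate 1 was the highest library of its day for all 3 genes, and the adjusted p of their differences between diets was 0.300, 0.334 and 0.338.

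**Figure D5:**
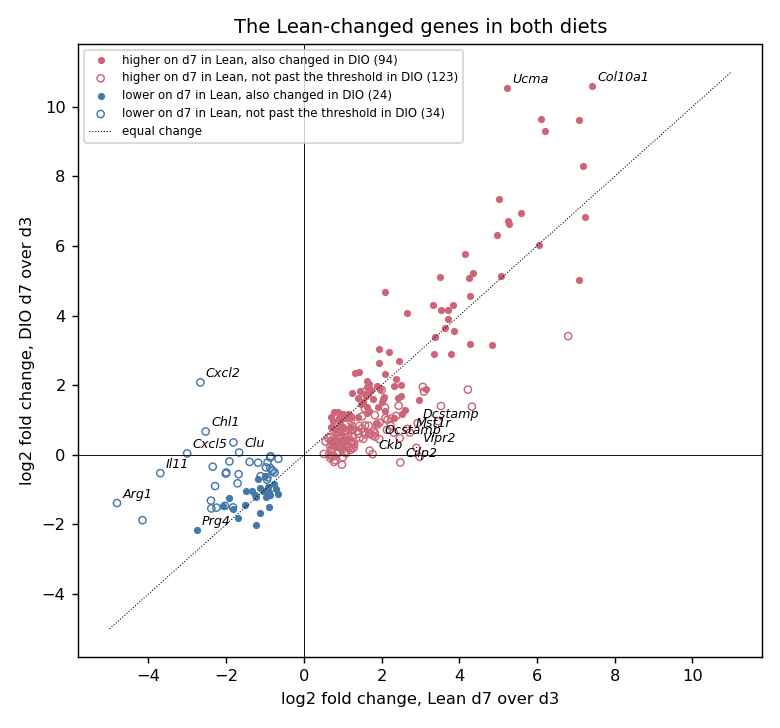
Each point is 1 of the 275 genes that changed in Lean, with its log2 fold change from d3 to d7 in Lean on the horizontal axis and in DIO on the vertical axis. Filled points also changed in DIO (118 genes), the dotted line marks equal change, and the 14 genes of opposite sign include Cxcl2 and Cilp2.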

How the data were processed

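Illumina stranded poly(A) libraries were sequenced, and the authors aligned reads to GRCm38 with HISAT2 2.1.0 and counted them per gene with HTSeq. They deposited raw read counts, without normalization. The HTSeq version, strand setting and annotation are not given in the sources used here, so reads of overlapping genes on opposite strands may be shared.

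The 12 lean libraries were fitted with edgeR 4.0.16 (TMM factors, filterByExpr, quasi-likelihood F-test, 1 term per day), with Benjamini-Hochberg adjustment over all tested genes and a threshold of 0.05. The 18 DIO libraries and the 24 libraries of d3 to d10 were fitted likewise. Standard errors were taken from the fold change and its F statistic. CPM are counts per 1000000 of the library total times its TMM factor. Errors rest on the spread pooled over all days of a fit, with 3 mice per day, and not on d3 and d7 alone. Groups came from the labels. Replicate numbers name different mice, and no block was used. The same fit was tested on simulated data.

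Members and gene lists were chosen with earlier results of these data known. Named genes are the 15 largest increases and decreases past the threshold with at least 1 CPM, called list members with up to 3 next ones per list, fixed anchor genes, and 5 genes for the diet difference. Others are said to be picked after their values were seen. Symbols and positions are from GENCODE M21 (42548 of 43629 identifiers matched) and promoters from RefSeq (192 of the 275 genes matched). Shared 50-base words were counted over GENCODE transcripts. Alternatives were DESeq2 1.42.0, other scaling factors and filters, other sets of libraries, the replicate number as a block, a 1.5-fold threshold and single libraries left out.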

Additional observations from a re-analysis of the deposited data

How the results depend on the processing

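The 35 genes with the largest changes or the smallest p between diets kept their direction under every alternative. They were chosen for changes without overlap between the days, so a kept direction says little. Of their 35 calls, 23 were lost without d3 replicate 1, 23 without d3 replicate 2 and 22 without d7 replicate 3. At the 1.5-fold threshold 17 were lost. Other scaling factors (RLE and upper quartile, 283 and 268 genes changed) moved the counts by less than 1.5 times. DESeq2 called 837 genes, 544 higher and 293 lower, among them all 275. With a filter of 1 count the number lower was 89. A fit of the 6 libraries of d3 and d7 called 451 genes, 152 of them lower, one of all 30 libraries 523, 365 higher and 158 lower, and one without d10, added after seeing the data, 425, 153 of them lower. A change beyond 1.5-fold was called for 70 genes, 63 higher and 7 lower, with 5 cartilage matrix members and 1 cytokine member. For DIO, DESeq2 called 744 genes lower, and the 6 libraries alone gave 747 genes, 519 higher and 228 lower. For the difference between diets, 12 libraries gave 2 genes, both lower, and DESeq2 55, 27 higher and 28 lower. The cause of these shifts was not tested.

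Without single libraries, the count of changed genes was 57 to 316, with 47 to 253 higher and 10 to 63 lower. The cartilage collagens gave 0 to 4 calls and a median of 3.997 to 5.31, the cartilage matrix 2 to 8 calls and a median of 3.29 to 4.32, and the cytokines 0 to 3 calls. The osteoclast median was 0.46 to 1.18, the highest without d3 replicate 2. The median of the retinoic acid list was -0.063 to 0.25, below 0 without d3 replicate 2 (-0.063) or d7 replicate 1 (-0.032). For DIO the count was 592 (without DIO d3 replicate 2) to 1621, also low at 600 without DIO d3 replicate 1, with 410 to 921 higher and 181 to 700 lower, and for the difference between diets 0 to 16, the most without DIO d7 replicate 3, with 0 to 10 higher and 0 to 6 lower.

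The replicate numbers are shared between days but name different mice. Deviations of same-numbered libraries from their day means had correlations of 0.12, 0.14 and -0.14, so the numbers were not taken to pair the mice. With the replicate block 451 genes changed, 310 higher and 141 lower, of which 260 were among the 275, the osteoclast median was 0.71, and the difference between diets had 1 gene, higher.

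Depth and number limit low genes: the 3 mice per day and levels under 1 CPM leave Calcr, Trpm5 and Cryba2 resting on few counts.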
